A study of Mus musculus with 169 samples.

Results

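The genes described here are C3, the central protein of the complement cascade, with 8 genes that make, bind or control its products: C4b, Cfb, Cfp, C3ar1, C5ar1, Itgam, Itgax and Itgb2. They were chosen by name, as every probe of the microglia arrays whose accession maps to 1 of these genes, which gave 9 genes with 12 probes among 20145 gene symbols on the array. Every one of the 9 had a probe well above background on at least 3 of the 15 arrays and entered the test. The study compared mice that lack the progranulin gene (Grn-/-, KO) with Grn+/+ mice (WT), both on a C57B/6J background. Microglia were isolated at 4 and 16 months on Percoll gradients and by cell sorting with antibodies to CD11b, CD45 and Ly6G. The groups were KO of 4 months (3 arrays), WT of 4 months (4 arrays), KO of 16 months (4 arrays) and WT of 16 months (4 arrays). Each array measured 1 single-color labeled sample, and the labels do not say how many animals went into a sample. The Grn-/- line lacks the gene in all cells, and the labels name no cell type in which it was deleted. The brain tissue of the same series was not used here, because its bead array probes could not be tied to genes.

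Complement is a chain of plasma and tissue proteins that tags surfaces for removal. The classical branch runs from C1q through C4 to C3, the alternative branch uses factor B and properdin, and both cut C3 into a small fragment, C3a, and a large one, C3b, that binds to the target. C3a and C5a call cells through the receptors C3ar1 and C5ar1, whereas cells take up targets that carry C3b breakdown products through the integrin pairs CR3 (Itgam with Itgb2) and CR4 (Itgax with Itgb2). In the brain, microglia carry CR3 and remove C3-tagged synapses, the process named in the study's title.

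Values are levels of 1 probe on 1 array, as log2 of its processed signal over the 75th percentile of the signals on that array, so that 0 is the level of that percentile and 1 unit is a factor of 2. Levels below -4.94 were set to -4.94, called the floor. It is the highest of the arrays' lowest signals above background, so a value at the floor can still be above background on its array. The 75th percentile itself was lower on the KO arrays of 16 months (507 to 1037, with 54.2 to 62.7% of probes above background) than on the WT arrays of that age (1010 to 1511, with 64.6 to 69.8%). It was 1072 to 1752 on KO arrays of 4 months and 1306 to 1649 on WT arrays of 4 months. The WT arrays 1 and 2 of 16 months matched each other, and arrays 3 and 4 each other, more closely than any other pair of arrays within a group. The scaled median absolute deviation of the log2 difference was 0.117 to 0.153 in these pairs, against 0.464 to 1.28 in the others. Each of these pairs was therefore counted as 1 replicate, and the group had n = 2. Nothing in the labels says that the other arrays came from separate animals, and p-values measure only the spread between these samples. The arrays of 4 months and those of 16 months were on separate slides. In the sample titles, the field before the array number also differed between KO and WT at both ages, and the labels do not say what it stands for. Age therefore cannot be told apart from slide, nor genotype from whatever that field stands for.

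Grn itself was at -3.36, -2.90 and -2.06 on the KO arrays of 4 months, against 6.13 to 6.32 on the 4 WT arrays. At 16 months it was above background on 0 of 4 KO arrays and stood at 4.61 to 5.51 on the WT arrays. That was at least 1010-fold lower in KO (limma adjusted p = 3.75e-07), and every library followed its label. Markers of the labelled cell type were measured on all arrays, but not equally. The summed level of 13 microglia markers was 1800 to 2790 in KO and 1880 to 2390 in WT replicates at 4 months, and 241 to 635 in KO and 1250 to 2160 in WT replicates at 16 months. At 16 months 12 of the 13 fell in KO, with a median difference of -3.12, against 0.12 over all 31927 features tested. In these bulk samples, fewer microglia and less of an RNA per microglial cell cannot be told apart.

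Across both ages, 2 of the 9 genes, C3 and Itgax, had KO and WT replicates that did not overlap at either age. C3 and Itgax were higher in every KO replicate than in every WT replicate at 4 months, and lower in every KO replicate than in every WT replicate at 16 months. Of all 31927 features, 0.639% had this pattern. The change of the KO effect between the ages passed limma's test, with a lower KO effect at 16 months, for these 2 genes and for 0 of the other 7. Of all features 13.3% passed that test, and 6.45% with a lower effect.

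**Figure D1:**
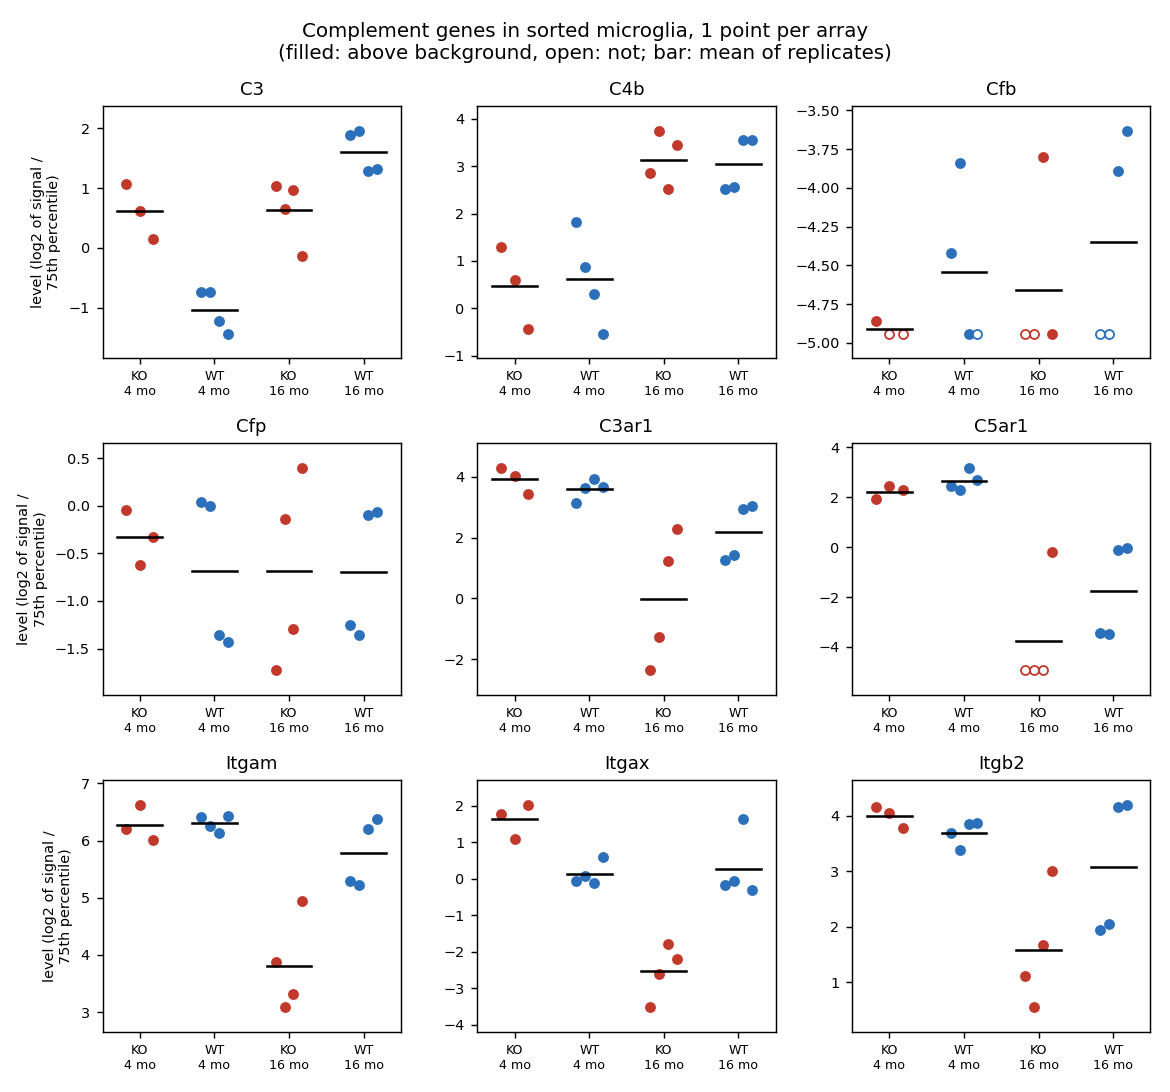
Level of the 9 genes on each of the 15 arrays (vertical axis: log2 of the probe signal over the array's 75th percentile, each panel with its own scale) in KO and WT microglia of 4 and 16 months. Points are arrays, filled where the probe was above background and open where it was not, and bars are means of replicates. C3 and Itgax separate KO from WT at both ages in opposite directions, and the KO arrays of 16 months are spread over several log2 units for C3ar1 and C5ar1.

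C3 is the protein on which all branches of complement meet. Its promoter is shown because C3 is 1 of the 2 genes whose replicates were separated in opposite directions at the 2 ages. It lies on chromosome 17 at chr17:57228087-57228386 (GRCm38.p6, minus strand, RefSeq) and covers 250 bases before and 50 after the start of the gene. Capitals mark the letters TTGCNNAA, a form of the element bound by C/EBP factors, searched on both strands. Of 32851 promoters of this length 10.8% hold it, so a match is only a description.
C3: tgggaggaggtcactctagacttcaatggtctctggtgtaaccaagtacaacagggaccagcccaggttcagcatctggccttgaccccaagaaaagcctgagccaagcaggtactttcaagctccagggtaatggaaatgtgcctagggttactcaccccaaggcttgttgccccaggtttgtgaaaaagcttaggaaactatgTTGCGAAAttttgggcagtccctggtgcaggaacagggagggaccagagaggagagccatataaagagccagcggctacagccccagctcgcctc
The match starts at position -45 from the start of the gene and was the only match to the letters searched in this window.

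At 4 months C3 was at 1.07, 0.61 and 0.15 on the KO arrays, against -0.73, -0.74, -1.22 and -1.43 on the WT arrays. All KO arrays were above all WT arrays. The means were 0.61 ± 0.46 (SD, n = 3) in KO and -1.03 ± 0.35 (SD, n = 4) in WT, a difference of 1.64 (SE 0.34, 95% interval 0.89 to 2.39). The unadjusted p was 0.000585 and limma's p adjusted over all features was 0.234, so C3 did not pass at 4 months.

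At 16 months C3 was at 1.04, 0.65, 0.96 and -0.13 on the KO arrays, against 1.88, 1.96, 1.28 and 1.32 on the WT arrays. The lowest value belonged to KO array 4, and no KO array reached the lowest WT array. The means were 0.63 ± 0.54 (SD, n = 4) in KO and 1.61 ± 0.44 (SD, n = 2) in WT. The difference was -0.98 (SE 0.38, 95% interval -1.83 to -0.13, adjusted p = 0.0724). It passed in 3 of 24 other settings, which were quantile normalization (-1.13, adjusted p = 0.0403), the 75th percentile taken over probes above background on all arrays (-1.28, adjusted p = 0.0251) and each array as its own replicate (adjusted p = 0.0176). It passed in none of the fits that left out 1 replicate, and was -0.67 without WT replicate 1 and 2 (adjusted p = 0.379).

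The KO minus WT difference of C3 changed by -2.62 between 4 and 16 months (SE 0.51, adjusted p = 0.0101), and this test passed in all 23 other settings, with adjusted p-values of 0.00175 to 0.0362. The order of the 4 groups by mean level was WT of 16 months, KO of 16 months, KO of 4 months and WT of 4 months. KO of 16 months (0.63) and KO of 4 months (0.61) overlapped, and the other neighbours in that order did not. The KO groups thus lay side by side, with the WT groups of 4 and 16 months on either side of them.

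The main C3 probe, A_51_P110301, was spotted 10 times on each array. The other probe of C3, A_55_P2038525, had 1 spot. On it C3 was at -0.41, -0.82 and -0.78 on KO arrays of 4 months, against -1.53, -1.67, -2.07 and -2.31 on WT arrays, again without overlap. The KO arrays of 16 months were at 0.86, -3.14, 0.42 and -0.44, against 0.91, 0.98, 0.59 and 0.60 on WT arrays. Here KO array 2 was far below the rest and KO array 1 lay within the WT range. In a fit over every probe, the 2 differences were 1.22 (SE 0.76, adjusted p = 0.957) at 4 months and -1.34 (SE 0.87, adjusted p = 0.277) at 16 months, and their change with age was -2.57 (SE 1.15, adjusted p = 0.178). Without KO array 2 the difference at 16 months was -0.49 (SE 0.37, adjusted p = 0.364). The second probe thus had the same signs as the first and did not pass the test, and its size at 16 months rested on 1 array.

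At 4 months, the age at which C3 and Itgax were higher in KO, the summed levels of 6 of 11 marker lists of other cell types did not overlap between genotypes. The summed level of 12 choroid plexus markers, epithelium that makes cerebrospinal fluid, was 197 to 315 in KO and 11.3 to 132 in WT replicates, with Cldn2 at the floor on all WT arrays and 0 of 12 past the test. The sum of 8 neutrophil markers was 202 to 252 in KO and 33.9 to 119 in WT, that of 5 monocyte markers 14.6 to 36.4 in KO and 3.59 to 10.7 in WT, and that of 7 border macrophage markers 5.33 to 9.01 in KO and 2.51 to 3.61 in WT, with Cd163 at the floor on all arrays of 4 months. The sum of 10 astrocyte markers was 43.4 to 45.4 in KO and 30.4 to 40.3 in WT, and that of 3 B cell markers was lower in KO, at 4.89 to 8.51 against 9.1 to 10.4 in WT. The sums of the T and NK cell, oligodendrocyte, neuron, endothelium and red blood cell lists overlapped. By mean log2 level the monocyte list overlapped as well (-1.93 to -0.93 in KO, -2.15 to -1.43 in WT), and its median difference was -0.04. So did the astrocyte (-1.29 to -0.63 in KO, -1.57 to -0.75 in WT) and B cell lists (-2.31 to -1.30 in KO, -2.03 to -1.19 in WT). The choroid plexus, neutrophil and border macrophage lists did not overlap by mean log2 level. Of all these lists, 0 markers passed the test at 4 months. The part of these markers in the C3 and Itgax values of 4 months was not tested.

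At 16 months the choroid plexus sum was again higher in KO, at 1310 to 2460 against 385 to 782 in WT, and 6 of 12 markers rose. The neutrophil sum overlapped at that age, at 0.619 to 231 in KO and 80.4 to 355 in WT, with Cxcr2 at the floor on all arrays. The monocyte sums (7.06 to 71.7 in KO, 24.5 to 52.1 in WT) and the border macrophage sums (23.3 to 85.1 in KO, 45.8 to 88.3 in WT) overlapped as well, as did the neuron sums (7.04 to 15.3 in KO, 8.36 to 11.1 in WT). The part of these markers in the values of 16 months was not tested.

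**Figure D2:**
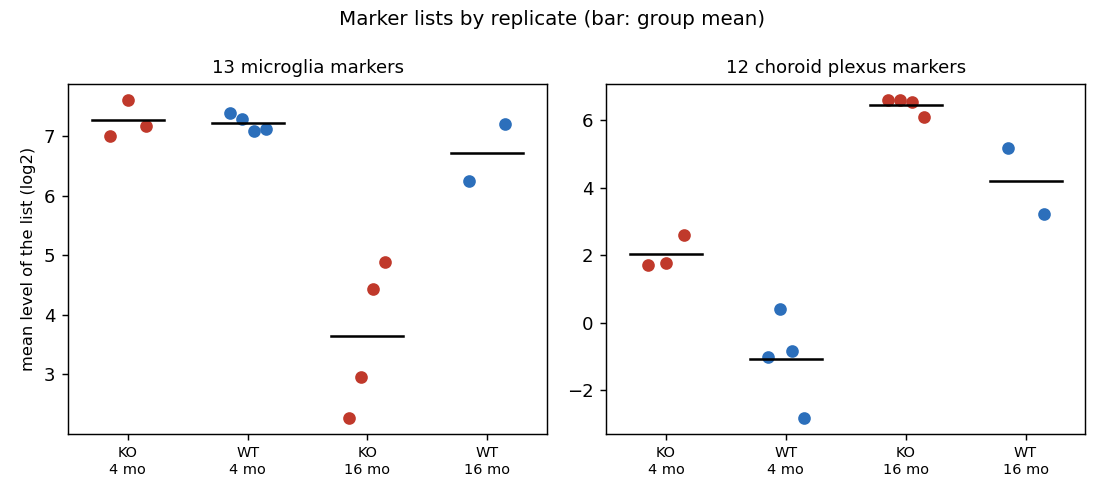
Mean level (log2) of the 13 microglia markers (left) and the 12 choroid plexus markers (right) in each of the 13 replicates, with bars at group means. Microglia markers are lower in the 4 KO replicates of 16 months (2.27 to 4.88) than in WT (6.24 and 7.20), and choroid plexus markers are higher in KO at both ages.

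C4b encodes complement C4, which the classical branch cuts just before C3. C4b has a near-identical neighbour, C4a, for which no probe was named on the array, and whether the C4b probe reads both was not tested. At 4 months C4b was at 1.29, 0.60 and -0.44 on KO arrays, against 1.83, 0.88, 0.30 and -0.53 on WT arrays. Its levels on the KO arrays of 16 months were 2.86, 3.75, 2.51 and 3.45, against 2.51, 2.56, 3.56 and 3.55 on WT arrays. The genotypes overlapped at both ages, and the arrays within a group spread over more than 1 log2 unit in every group. The difference was -0.14 (SE 0.58, 95% interval -1.43 to 1.16) at 4 months and 0.099 (SE 0.66, 95% interval -1.37 to 1.57) at 16 months, with adjusted p-values of 1 and 0.959. The sign at 16 months turned with quantile normalization (-0.25). Both groups of 16 months (means 3.14 in KO and 3.04 in WT) lay above both of 4 months (means 0.48 in KO and 0.62 in WT) without overlap, a difference that age and slide share.

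Cfb and Cfp serve the alternative branch. Cfb encodes factor B, which forms the enzyme that cuts further C3. Its probe was above background on 8 of 15 arrays and at -3.63 or below on all of them. On the KO arrays of 4 months it was at -4.86 on array 1 and at the floor on the other two, against -4.42 and -3.84 on WT arrays 1 and 2 and the floor on the other two. At 16 months it was at -3.80 on KO array 3 and at the floor on the other three, against -3.89 and -3.63 on WT arrays 3 and 4 and the floor on arrays 1 and 2. The level of Cfb therefore had no order in any group beyond these few arrays. The differences were -0.38 (SE 0.39) at 4 months and -0.30 (SE 0.44) at 16 months, with adjusted p-values of 1 and 0.644.

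Cfp encodes properdin, which holds that enzyme together on a surface. At 4 months it was at -0.05, -0.62 and -0.33 on KO arrays, against 0.04, 0.00, -1.36 and -1.43 on WT arrays. The KO arrays of 16 months had -1.73, -0.14, -1.29 and 0.40, against -1.25, -1.36, -0.10 and -0.07 on WT arrays. KO and WT overlapped at both ages, and the means of the 4 groups lay within -0.70 to -0.33. The difference was 0.35 (SE 0.58, 95% interval -0.93 to 1.64, adjusted p = 1) at 4 months and 0.0057 (SE 0.66, 95% interval -1.45 to 1.46, adjusted p = 1) at 16 months.

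C3ar1 encodes the receptor for C3a. At 4 months it was at 4.30, 4.01 and 3.44 on KO arrays, against 3.14, 3.62, 3.91 and 3.67 on WT arrays. On the KO arrays of 16 months it was at -2.37, -1.27, 1.23 and 2.27, against 1.26, 1.43, 2.95 and 3.05 on WT arrays. KO arrays 1 and 2 of 16 months were below every other array, and KO array 4 lay within the WT range. The difference was 0.33 (SE 0.95, adjusted p = 1) at 4 months and -2.20 (SE 1.07, 95% interval -4.58 to 0.17, adjusted p = 0.138) at 16 months. It was -2.97 without KO replicate 4 of 16 months (adjusted p = 0.0267), -1.43 without KO replicate 1 (adjusted p = 0.253) and -1.37 without WT replicate 3 and 4 (adjusted p = 0.538). In the fit with the replicate block it was -2.20 with adjusted p = 0.042. At 16 months that block joined KO arrays 1 and 2 with WT arrays 1 and 2, and KO arrays 3 and 4 with WT arrays 3 and 4.

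C5ar1 encodes the receptor for C5a. At 4 months it was at 1.91, 2.45 and 2.30 on KO arrays, against 2.43, 2.28, 3.18 and 2.70 on WT arrays. At 16 months it was not above background on 3 of 4 KO arrays and stood at -0.21 on KO array 4, against -3.45, -3.49, -0.11 and -0.04 on WT arrays. Every array of 16 months, of either genotype, was below every array of 4 months. The difference at 16 months was -1.98 (SE 1.29, 95% interval -4.84 to 0.88, adjusted p = 0.265). It was -0.29 without WT replicate 3 and 4 (adjusted p = 0.963) and -3.68 without WT replicate 1 and 2 (adjusted p = 0.115). Without KO replicate 4 all KO values lie at the floor and the difference of -3.17 is only a bound. The difference at 4 months was -0.43 (SE 1.14, adjusted p = 1). The KO arrays of 16 months had the same order for C3ar1 as for the mean of the 13 microglia markers, which was 2.27, 2.96, 4.44 and 4.88 in replicates 1 to 4, and KO array 4 was highest in C5ar1 too. The part of the microglia markers in these values was not tested.

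Itgam encodes CD11b, the chain that gives CR3 its binding site. CD11b was also 1 of the proteins on which the cells were sorted, so its RNA level is not independent of the gate. Its promoter is shown with that of Itgax, its neighbour on chromosome 7 with 1 annotated gene between them, because both were lower in all KO replicates of 16 months. Capitals mark GAGGAA, a core bound by the myeloid factor PU.1, searched on both strands and present in 28.3% of promoters of this length. The windows are chr7:128062390-128062689 for Itgam and chr7:128129300-128129599 for Itgax (GRCm38.p6, plus strand, RefSeq).
Itgam: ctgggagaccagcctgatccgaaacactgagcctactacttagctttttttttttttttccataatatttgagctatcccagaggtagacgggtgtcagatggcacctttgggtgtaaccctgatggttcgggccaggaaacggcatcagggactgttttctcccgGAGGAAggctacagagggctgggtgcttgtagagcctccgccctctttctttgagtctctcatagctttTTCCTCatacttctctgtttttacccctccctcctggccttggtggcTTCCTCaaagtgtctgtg
Itgax: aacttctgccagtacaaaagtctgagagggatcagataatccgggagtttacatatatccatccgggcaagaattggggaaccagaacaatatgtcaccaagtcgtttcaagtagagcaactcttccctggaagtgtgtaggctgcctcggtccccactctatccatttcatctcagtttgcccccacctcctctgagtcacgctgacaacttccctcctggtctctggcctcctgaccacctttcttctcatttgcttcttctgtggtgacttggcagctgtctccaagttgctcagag
GAGGAA, or TTCCTC on the other strand, starts at positions -84, -15 and 33 from the start of Itgam. The Itgax window holds none of the letters searched, nor does it hold TTGCNNAA, and these letters say nothing about binding elsewhere.

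At 4 months Itgam was at 6.20, 6.63 and 6.01 on KO arrays, against 6.41, 6.25, 6.13 and 6.43 on WT arrays. Levels on the KO arrays of 16 months were 3.87, 3.08, 3.32 and 4.95, against 5.30, 5.23, 6.21 and 6.37 on WT arrays. The genotypes overlapped at 4 months and did not at 16 months, when every KO array was also below every array of 4 months. Itgam fell by 1.97 in KO at 16 months (SE 0.47, 95% interval -3.01 to -0.93, adjusted p = 0.00894), a level 3.92-fold lower. The call was lost without WT replicate 3 and 4 (-1.46, adjusted p = 0.0938) and when only 16-month arrays were fitted (adjusted p = 0.114). At 4 months the difference was -0.026 (SE 0.41, adjusted p = 1). The change with age was -1.94 (SE 0.62, adjusted p = 0.0653).

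The 3 probes of Itgam did not give the same difference. A_55_P1977929, for the same transcript accession, was at -3.02, -0.93, -1.99 and -2.77 on KO arrays of 16 months, against -1.28, -1.21, 1.69 and 1.68 on WT arrays, and fell by 2.40 (SE 0.80, adjusted p = 0.0449). That call was lost without WT replicate 3 and 4 (-0.93, adjusted p = 0.459) and without KO replicate 1, 3 or 4 (-2.46 to -2.12). KO array 2 lay above WT arrays 1 and 2 on this probe. A_55_P1977926, for another transcript accession of Itgam, was at -2.05, -2.39, -2.03 and -2.68 on KO arrays, against -3.13, -2.93, -0.81 and -0.73 on WT arrays. The WT pairs lay on either side of the KO arrays there, and the difference was -0.39 (SE 0.64, adjusted p = 0.715), with -1.51 without WT replicate 1 and 2 and 0.74 without WT replicate 3 and 4. At 4 months both differed by -0.40 (SE 0.71 for the first and 0.57 for the other, adjusted p = 1 each).

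**Figure D3:**
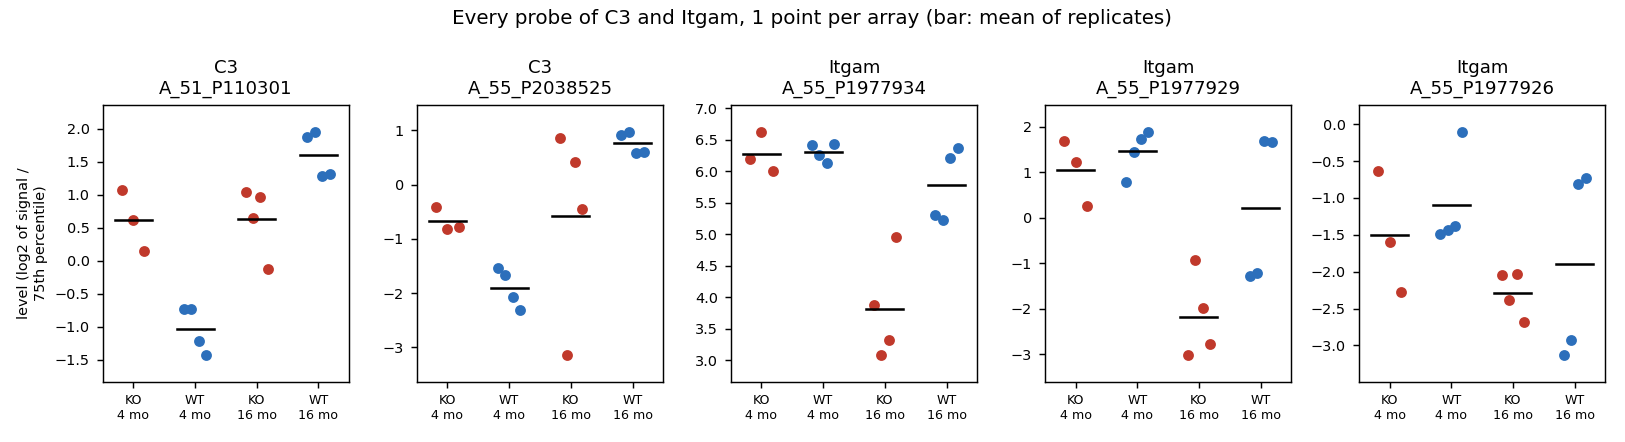
Level (log2 of the probe signal over the array's 75th percentile) of the 2 probes of C3 and the 3 of Itgam, 1 point per array, with bars at the means of replicates in KO and WT microglia of 4 and 16 months. The 2 C3 probes have the same order of group means within each age, and the last Itgam probe shows no separation at 16 months because its WT arrays lie both above and below the KO arrays.

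Itgax encodes CD11c, the binding chain of CR4, low in resting microglia and higher in those of disease and aging. At 4 months it was at 1.77, 1.09 and 2.04 on KO arrays, against -0.05, 0.07, -0.11 and 0.61 on WT arrays. The groups did not overlap, and the difference was 1.50 (SE 0.41, 95% interval 0.60 to 2.40), a level 2.83-fold higher in KO. Its unadjusted p was 0.00383 and its adjusted p 0.422, so Itgax did not pass at 4 months.

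At 16 months Itgax was at -3.53, -2.62, -1.80 and -2.19 on KO arrays, against -0.17, -0.06, 1.65 and -0.31 on WT arrays. Every KO array was below every other array of the study. WT array 3 stood far above WT array 4, its matched partner, on this probe, and neither spot was marked as an outlier. Itgax fell by 2.81 in KO (SE 0.46, 95% interval -3.83 to -1.79, adjusted p = 0.00136), a level 7.02-fold lower. With WT array 4 alone for that pair the difference was -2.32 (adjusted p = 0.00288), and with array 3 alone -3.30 (adjusted p = 0.00148). The call held in all 24 other settings, with adjusted p-values of 0.000351 to 0.0456.

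The KO minus WT difference of Itgax changed by -4.31 between 4 and 16 months (SE 0.62, adjusted p = 0.00313), and passed in all 23 other settings with adjusted p-values of 0.00114 to 0.0132. By mean level the groups ran from KO of 4 months (1.63) through WT of 16 months (0.28) and WT of 4 months (0.13) to KO of 16 months (-2.54). The WT groups overlapped with each other, and the KO groups stood apart at the top and the bottom. For C3 the KO groups were the neighbours that overlapped, so the 2 genes reached their change with age by different group levels.

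Itgb2 encodes CD18, the beta chain shared by CR3 and CR4. At 4 months it was at 4.15, 4.05 and 3.77 on KO arrays, against 3.68, 3.38, 3.85 and 3.86 on WT arrays. At 16 months it was at 1.11, 0.55, 1.68 and 3.01 on KO arrays, against 1.94, 2.05, 4.15 and 4.20 on WT arrays. KO array 4 lay above WT arrays 1 and 2, and the other KO arrays lay below all WT arrays. The difference was 0.30 (SE 0.58, adjusted p = 1) at 4 months and -1.50 (SE 0.66, 95% interval -2.96 to -0.03, adjusted p = 0.105) at 16 months. It was -1.97 without KO replicate 4 (adjusted p = 0.0197) and -2.59 without WT replicate 1 and 2 (adjusted p = 0.0262), but -0.40 without WT replicate 3 and 4 (adjusted p = 0.746). In the fit with the replicate block it was -1.50 with adjusted p = 0.0445.

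**Figure D4:**
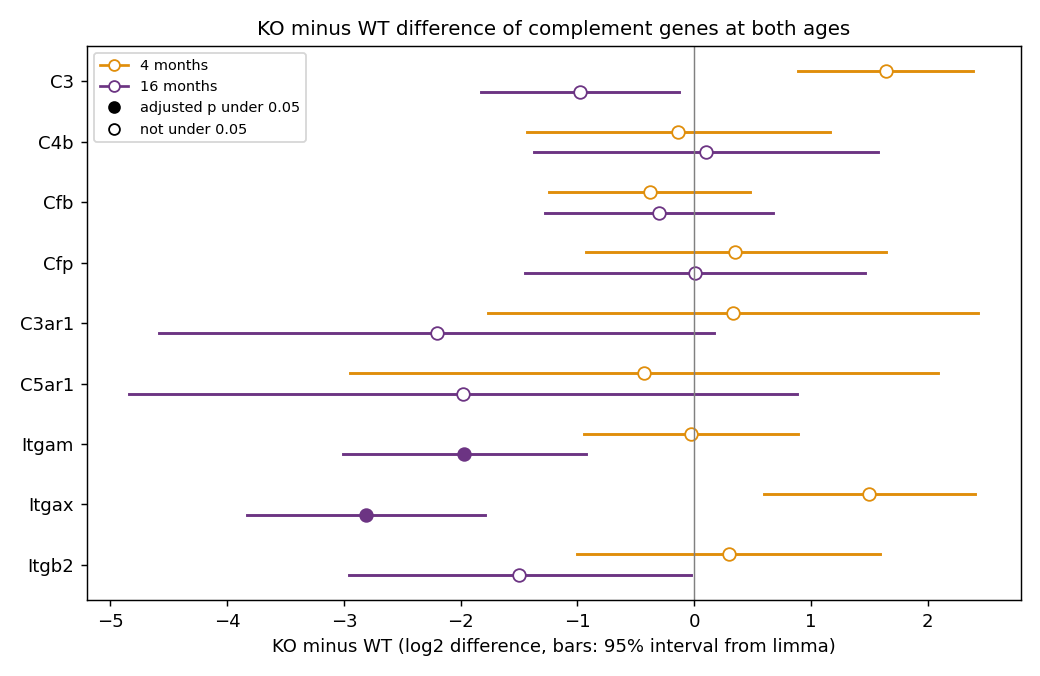
KO minus WT difference (log2) of the 9 genes at 4 months (orange) and 16 months (purple), with 95% intervals from limma. Filled points passed the adjusted threshold of 0.05, which were Itgam and Itgax at 16 months. The intervals of C3 lie above 0 at 4 months and below 0 at 16 months.

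As a group, 0 of the 9 genes passed the test at 4 months by limma, where 0.0251% of all features passed. At an unadjusted p under 0.05 there were 2 (C3 and Itgax), where 6.01% of all features had such a p. In 2 of the 9 every KO replicate was above every WT replicate, as in 4.98% of all features. The median difference of the 9 was 0.30, against 0 over all features.

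At 16 months 2 of the 9 fell and 0 rose. In that comparison 34.3% of all features passed the test, made up of 15% of all features lower and 19.3% higher. Of those calls 56.3% were higher in KO, a share that was 43.5% with the 75th percentile over probes above background on all arrays, where the median of all features was 0. The share of these 9 genes that passed was thus not above that of all features. In 3 of the 9 (C3, Itgam and Itgax) every KO replicate was below every WT replicate, as in 17.9% of all features. The median difference was -1.50, against 0.12 over all features, and 7 of the 9 had a negative sign. The count of genes that fell was 1 without WT replicate 3 and 4 and 5 without KO replicate 4, among them C5ar1 with all KO values at the floor. In the fit with the replicate block 4 fell. The change with age was negative for 7 of the 9, with a median of -1.79 against 0.18 over all features.

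Of the complement genes outside these 9, a list of 39 had 32 tested at 16 months, and 7 rose and 2 fell in KO, with a median difference of 0.37. Over all features 19.3% rose and 15% fell, so the share of the list that rose was near that of all features. With the 75th percentile taken over probes above background on all arrays 5 rose and 4 fell, in the fit of 16-month arrays alone 3 rose and 0 fell, and in the fit with the replicate block 7 rose and 6 fell. At 4 months 0 of the 32 passed by limma. Among the initiators, C1qc, a chain of C1q, fell by 2.83 (adjusted p = 0.00359), C1s1, the protease next to it, rose by 3.45 (adjusted p = 0.0164) and Fcna, a lectin that starts the lectin branch, rose by 3.04 (adjusted p = 0.00405). The other chains of C1q, C1qa (-0.86, adjusted p = 0.38) and C1qb (-0.97, adjusted p = 0.278), did not pass limma's test at 16 months. For C1qc the fall was lost when only 16-month arrays were fitted (adjusted p = 0.0833). Fcna was above background on 2 of 4 WT arrays, and its rise was lost in that fit and without WT replicate 1 and 2. Of 4 terminal components tested, 0 passed at either age.

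The other rises were of regulators that restrain the cascade. Serping1, the C1 inhibitor, rose by 2.08 (adjusted p = 0.0285) and Vtn, vitronectin, by 2.64 (adjusted p = 0.0318), and neither passed with that other percentile. Cd55, which takes apart the C3-cutting enzyme on cell surfaces, stood at 3.01 to 3.95 on KO arrays and -0.17 to 1.79 on WT arrays and rose by 2.86 (adjusted p = 0.0192). Cd59a, which blocks the membrane pore, was at 4.22 to 5.40 on KO arrays and 0.31 to 2.50 on WT arrays and rose by 3.49 (adjusted p = 0.00999). Its copy Cd59b rose by 4.14 (adjusted p = 0.028), with WT above background on 2 of 4 arrays. Without WT replicate 3 and 4, 1 gene of the list of 39 rose and 2 fell. Cd59a and Cd59b were also higher in KO at 4 months, by 2.72 (adjusted p = 0.434) and 2.27 (adjusted p = 0.875), which did not pass.

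The choroid plexus sums given above were higher in KO at both ages, as were the Cd59a levels, and their part in the regulators' rise was not tested. Other marker sums that did not overlap at 16 months were those of astrocytes (49.1 to 108 in KO, 32.4 to 43.4 in WT, with Gfap at the floor on all WT arrays), oligodendrocytes (32.4 to 142 in KO, 191 to 204 in WT, with Mobp at the floor on all KO arrays) and endothelium (23.8 to 109 in KO, 18.8 to 18.9 in WT, with Emcn at the floor on all KO arrays). Their lists had 3 higher and 1 lower of 10 tested in astrocytes, 1 higher and 4 lower of 9 in oligodendrocytes, and 2 higher and 2 lower of 10 in endothelium. The sums of 5 T and NK cell markers (0.618 to 1.82 in KO, 0.382 to 0.58 in WT), of 3 B cell markers (0.168 to 0.481 in KO, 1.47 to 2.03 in WT) and the level of 1 red blood cell marker (0.744 to 11.7 in KO, 0.137 to 0.241 in WT) did not overlap either. By mean log2 level, however, the astrocyte list overlapped between genotypes (-0.26 to 0.31 in KO, -1.24 to 0.00 in WT). The endothelium list overlapped too (-1.72 to 0.44 in KO, -0.50 to -0.35 in WT). The median difference of its markers was -1.25, although its sum was higher in KO. The other lists named here did not overlap by mean log2 level.

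Among receptors, C5ar2, the other receptor for C5a, fell by 4.28 (adjusted p = 0.0405), with KO above background on 2 of 4 arrays. This call was lost in 12 of 23 other settings. Of 6 integrin genes related to Itgam, Itgax and Itgb2, 2 fell at 16 months and 0 rose, where 15% of all features fell. Itgb3, a partner of the alpha-v chain, stood at -0.82 to -0.20 on KO arrays and 2.01 to 2.62 on WT arrays and fell by 2.78 (SE 0.29, adjusted p = 0.000152). Itgb5, another partner of that chain, stood at 3.79 to 4.87 on KO arrays and 6.05 to 7.29 on WT arrays and fell by 2.08 (SE 0.35, adjusted p = 0.00162). The Itgb5 call was lost when only 16-month arrays were fitted (limma adjusted p = 0.062). Itgad, another binding chain of the beta-2 family, was not above background on any of 4 KO arrays of 16 months and did not pass the test (adjusted p = 0.108). By group means its level in KO was at least 4.19-fold lower. That bound takes account of the floor and not of the spread between replicates, with WT arrays at -3.90 to -1.89.

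**Figure D5:**
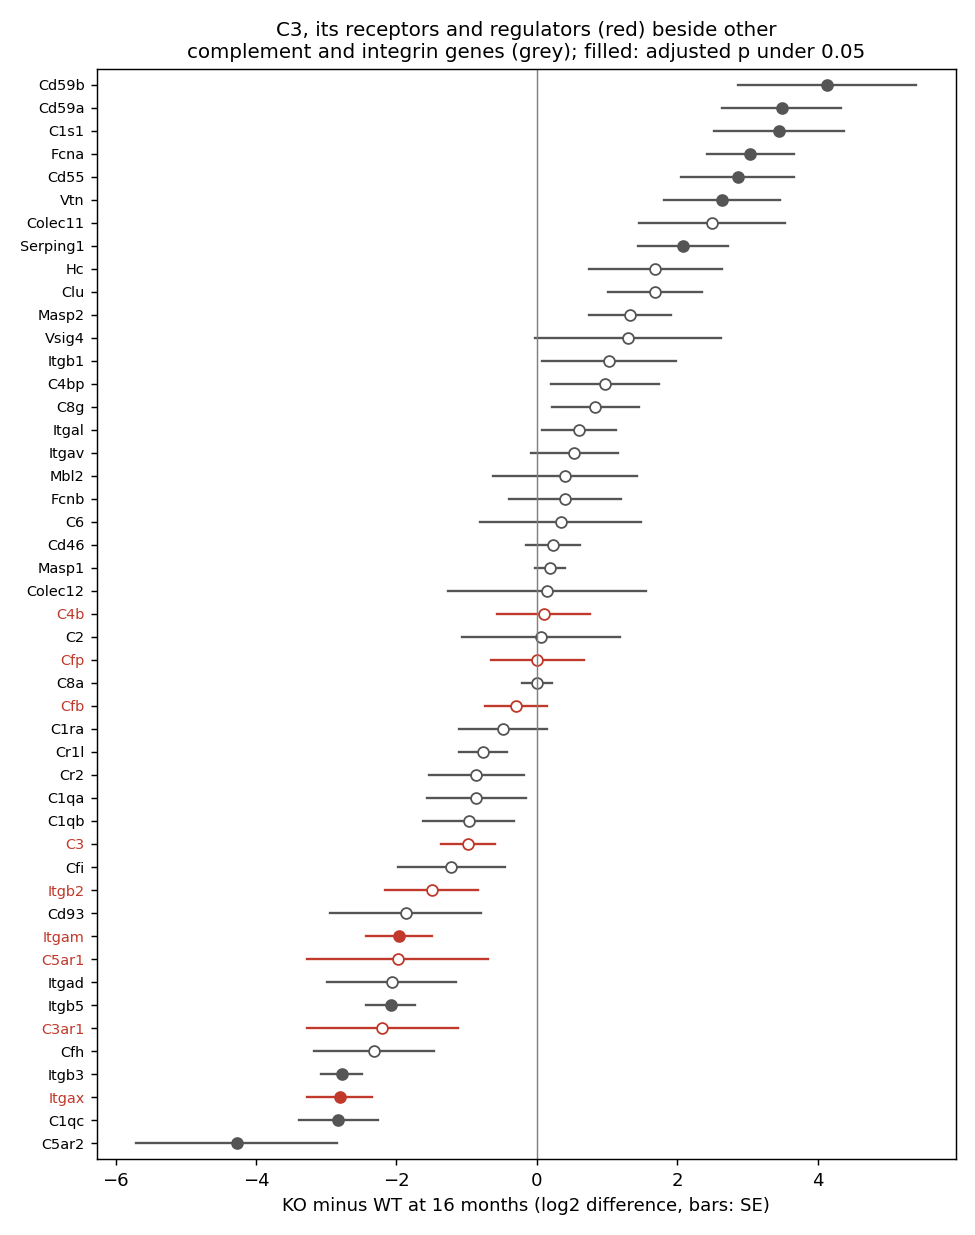
KO minus WT difference at 16 months (log2, bars are SE) of the 9 genes (red) and of the 38 other complement and integrin genes tested (grey), ordered by size. Filled points passed the adjusted threshold of 0.05. The regulators Cd59b and Cd59a lie at the top, followed by C1s1 and Fcna, and Itgax and Itgam are the red genes that passed. For 6 of the grey genes, Itgad among them, 1 genotype was not above background on any array, and the point is only a bound. C8a, also among them, lay at the floor on all arrays of 16 months, so its point is not even a bound.

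The genes whose centered levels over the 13 replicates lay closest to those of each of the 9 were found by the root mean square difference in log2 units, over 17798 genes. For C3 they were Gstm1 (0.468), Hspa12a (0.501) and Irx3 (0.51), and for Itgax Hebp1 (0.43), Ssh3 (0.524) and Shc1 (0.538). For Itgam they were Mycbp2 (0.183), Lmo2 (0.249) and Fam3c (0.252), and for Itgb2 Slc46a3 (0.244), Dock10 (0.256) and Prkcd (0.26). For C3ar1 they were Tfpi (0.427), Themis2 (0.467) and Fcrls (0.477), the last a microglia marker. For C5ar1 the second nearest was C5ar2 (1.11), after D830031N03Rik (1.02). Within the 9, the closest pair was Itgam with Itgb2, the chains of CR3 (0.422), and Itgb2 was the 52nd nearest gene to Itgam. Itgax lay 0.917 from Itgb2 and 0.924 from Itgam, and C3 lay 1.08 or more from each of the other members.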

How the data were processed

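Microglia of KO and WT mice were measured on 15 Agilent arrays. The deposited processed signal is an intensity after background subtraction, per the file headers (Feature Extraction 10.7.3.1, array design 028005). R 2.15.3 is listed too in the submitters' processing notes. The deposited signals of the 4-month arrays, and not those of the 16-month arrays, were also scaled by spot position.

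Each array's signal was divided by its 75th percentile over all spots that were not controls, and log2 was taken. Repeat spots were averaged without outlier spots, with a floor of 0.0325 (-4.94 on the log2 scale). The filter asked for a signal well above background on 3 or more arrays (45615 of 55681 probes), and the brightest probe of each gene was used, which left 31927 features. A model with 1 mean per group was fitted to 13 replicates with limma 3.58.1 (lmFit, eBayes) in R 4.3.3. Tests were two-sided, with Benjamini-Hochberg adjustment over all features and a threshold of 0.05. Within the 2 averaged WT pairs the scaled median absolute deviation of the log2 difference was 0.117 to 0.153. In 19 other pairs within groups it was 0.464 to 1.28. Repeat spots had an SD of 0.197 to 0.288, which is a different measure of spread. The number of arrays limits the precision, and 0 spots were saturated.

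The labels number the arrays of KO and WT alike without saying what a number means. Deviations from group means correlated by -0.0428 to -0.0349 in same-numbered pairs at 4 months. At 16 months they correlated by 0.103 to 0.133 in all 4 pairs, with 2 WT replicates whose deviations mirror each other. KO arrays 1 and 2 were both paired with the WT replicate of arrays 1 and 2. KO arrays 3 and 4 were both paired with the WT replicate of arrays 3 and 4. The 4 pairs were therefore not independent, and the replicate block had 2 levels at 16 months, set by the WT pairs. The fit had no block, and the value with the block is given where it changes a call or a count at 16 months.

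All 9 genes were named, with members of the wider complement and integrin lists that passed the test. Itgad, C1qa, C1qb and the differences of Cd59a and Cd59b at 4 months were added after their values were seen. The genes, lists and tests were chosen with earlier results of these data known. Alternatives changed the background correction, the normalization, the filter, the probes, the replicates, the block and the arrays in the fit. The fit was also run on simulated data with independent noise and no floor. That run cannot show how the fit behaves for values at the floor or for samples that are not independent. Promoters are those of RefSeq (GRCm38.p6), which matched 6 of the 9 genes. The 154 bead arrays of brain tissue were not analysed here, because no table used here ties their probes to genes, so the comparisons planned in them were not run.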

Additional observations from a re-analysis of the deposited data

Results flagged for a closer look

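In 2 genes, 1 KO replicate of 16 months lay far from the other three. C5ar1 was at -0.21 on KO array 4, whereas the other three were at the floor and not above background. Cfb was at -3.80 on KO array 3, with the other three at the floor. The gap divided by the range was 1 in both, and since the floor sets the other values, the gap is a lower bound. Of 18 groups of 4 samples tested in this way, 2 stood out. Chance flags about 1 in 20 groups of values that vary freely, a rate that does not apply to values at the floor.

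For 2 genes the KO minus WT difference was not the same at the 2 ages by limma's interaction test. For C3 the change was -2.62 (SE 0.51, adjusted p = 0.0101) and for Itgax -4.31 (SE 0.62, adjusted p = 0.00313). In both, every KO replicate was above every WT replicate at 4 months and below every WT replicate at 16 months. Age and slide cannot be told apart.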

How the results depend on the processing

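Leaving out 1 replicate at a time gave 1 to 5 of the 9 genes lower at 16 months (2 with all replicates), and 2 to 3 with a lower KO effect at 16 than at 4 months. Over all features it gave 3855 to 7120 higher and 3913 to 5135 lower at 16 months, 0 to 38 higher and 1 to 51 lower at 4 months, and 1157 to 3110 higher and 1275 to 2641 lower for the change with age. With each array as its own replicate 4 members were lower at 16 months, 8 features were higher and 8 lower at 4 months, and 3715 were higher for the change with age. In the fit with the replicate block 4 members were lower at 16 months (C3ar1 with adjusted p = 0.042 and Itgb2 with 0.0445 besides Itgam and Itgax). With that block 0 features were higher and 1 lower at 4 months, and 849 were higher and 1106 lower for the change with age. In fits of 1 age alone, 1 member was lower, 1751 features were higher and 1674 lower at 16 months, and 23 were higher at 4 months. With probes above background on all arrays 2880 features were lower at 16 months, and 0 were higher and 0 lower at 4 months. At 4 months 3 were higher and 1 lower with normexp, 1 and 1 with quantile normalization, and 5 were lower with no filter. The cause of these shifts was not tested, except that fewer probes or samples entered where arrays or probes were left out.

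Signs of differences that did not pass also turned. C4b at 16 months was -0.25 with quantile normalization, -0.21 with the percentile over probes above background on all arrays and -0.41 to 0.61 without single replicates. Cfb at 16 months was 0.35 with normexp and -0.89 to 0.28 without single replicates, and Cfp was -0.30 with the other percentile and -0.60 to 0.61. At 4 months Itgam was 0.037 with normexp, 0.014 with the replicate block and -0.20 to 0.11 without single replicates, and C4b was -0.54 to 0.32. For the change with age C4b was -0.11 with quantile normalization and -0.27 to 0.74 without single replicates, and Cfb was -0.042 with quantile normalization, -0.051 with the other percentile and -0.52 to 0.66. C5ar1 was -3.25 to 0.14 and Cfp -0.96 to 0.26 without single replicates. The change with age in Itgam passed with quantile normalization (adjusted p = 0.0416), probes above background on all arrays (0.0472), each array as its own replicate (0.0274) and without KO replicate 4 of 16 months (0.00977). With each array as its own replicate C3 (adjusted p = 0.0176) and C3ar1 (0.0471) passed at 16 months.

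Over all features the median difference at 16 months was 0.45 with normexp, 0.10 with quantile normalization and 0 with the other percentile, against 0.12 as reported. For the change with age 40% of calls were higher with the other percentile, against 51.4%.

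The normexp setting started from median spot signals. The Itgam probe A_55_P1977926 differed at 16 months by -1.51 to 0.74 without single replicates. The settings with WT array 3 or 4 alone, and those that left out replicates for the other probes of C3 and Itgam, were chosen after seeing the data. The alternatives listed for the brain arrays were not run. The 2 WT replicates of 16 months limit every statement at that age, and Cfb and C5ar1 lay near background there.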
